A study of Mus musculus with 16 samples.

Results

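The genes described here are 9 factors that mark or drive the formative and primed states of the pluripotent epiblast: Otx2, Pou3f1, Zic2, Zic5, Fgf5, Foxd3, Sox3, Sox4 and Grhl2. They were taken by symbol from the 52636 gene rows of 1 table of read counts, and each symbol matched 1 row. RNA was measured in 16 libraries of mouse RSC, the labels' name for a pluripotent state reached from embryonic stem cells, in the line CRAFR26, which carries a c-RAF kinase construct that 4-hydroxytamoxifen (4OHT) switches on to activate the kinase ERK. Cells were kept in medium with IWP2 (an inhibitor of Wnt secretion), LIF and the MEK inhibitor PD03, and in every group, the uninduced one included, the FGF receptor inhibitor PD17 at 250 nM took the place of PD03 for 48 h. The 4 groups were then 0h (no 4OHT), 2h and 4h of 250 nM 4OHT, and rev, which had 4 h of 4OHT and a further 2 h with a MEK inhibitor. Each group had 4 libraries, 2 from clone 4 and 2 from clone 8. The labels do not say whether the 2 libraries of a clone were separate cultures, so p-values measure only the spread between these libraries, and 2 clones are a small sample of the line. A group with 6 h of 4OHT and no MEK inhibitor was not analysed here, so rev is set against 4h, 2h and 0h and the added time cannot be told apart from the inhibitor.

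In the early embryo and in stem cell culture, cells leave the naive state through a formative state and then become primed for the germ layers. FGF signalling through ERK is one of the inputs to this exit. Otx2, a homeobox factor, and Pou3f1, a POU factor also called Oct6, act early in it and bind enhancers of formative genes. Fgf5 codes for a secreted growth factor that is a classical marker of the postimplantation epiblast. Zic2 and Zic5 are zinc finger factors, Foxd3 is a forkhead factor that the epiblast needs, Sox3 and Sox4 are HMG box factors, and Grhl2 is a grainyhead factor that acts at enhancers of epithelial genes.

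Upstream sequences are shown for 3 members whose values differed most in kind: Sox4, with the largest change, Foxd3, with a nearly even level, and Zic5, a member of a divergent pair. Each is the 250 bases before the gene's start in RefSeq (build GRCm38.p6), written 5′ to 3′ on the gene's strand, which is minus for Sox4 and Zic5 and plus for Foxd3. Of the 9 members, 5 had an entry in that set. Capitals mark matches to the motifs searched on both strands.
Sox4, chr13:28953700-28953949: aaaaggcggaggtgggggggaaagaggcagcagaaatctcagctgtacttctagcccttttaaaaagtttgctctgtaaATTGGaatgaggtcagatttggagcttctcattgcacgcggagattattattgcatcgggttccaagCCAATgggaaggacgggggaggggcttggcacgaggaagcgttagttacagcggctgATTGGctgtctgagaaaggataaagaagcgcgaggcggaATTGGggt
Foxd3, chr4:99656049-99656298: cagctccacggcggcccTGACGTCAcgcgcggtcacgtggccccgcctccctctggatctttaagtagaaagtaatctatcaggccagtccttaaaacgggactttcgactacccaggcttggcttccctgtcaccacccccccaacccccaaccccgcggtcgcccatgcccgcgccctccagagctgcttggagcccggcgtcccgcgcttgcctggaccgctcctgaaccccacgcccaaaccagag
Zic5, chr14:122465659-122465908: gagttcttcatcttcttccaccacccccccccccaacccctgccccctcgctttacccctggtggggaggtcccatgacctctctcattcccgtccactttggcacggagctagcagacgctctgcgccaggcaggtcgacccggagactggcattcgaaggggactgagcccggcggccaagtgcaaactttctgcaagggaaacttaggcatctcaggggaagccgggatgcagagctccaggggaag
The search covered 8 motifs: ETS (CCGGAAG), AP-1 (TGANTCA), EGR (GCGTGGGCG), the CArG box, CRE (TGACGTCA), the TATA box (TATAAA), the GC box (GGGCGG) and the CCAAT box. No motif overlapped another in these 3 windows. The Sox4 window held 4 CCAAT matches, on one strand or the other, and 0.84% of 32851 such windows held 4 or more. The Foxd3 window held 1 CRE, found in 1.55% of windows. In the Zic5 window none of the 8 was matched, against shares over all windows of 6.91% for ETS, 6.75% for AP-1, 0.536% for EGR, 1.47% for the CArG box, 12.4% for TATA, 33.8% for CCAAT and 32.7% for the GC box. GC content was 50.8% for Sox4, 65.6% for Foxd3 and 62.4% for Zic5, and the median window had 52.4%.

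Libraries held 4.31 M to 10.4 M counts, of which 8 features with over 1% of all counts took 46.7% to 78.9%. Levels are given as CPM, the counts scaled by TMM to a common library size over 12742 genes that passed a filter on low counts, and 3 counts correspond to 0.21 to 0.908 CPM. Of 10 genes known to respond to ERK, such as Egr1, Fos and Dusp6, 9 rose at 2h and 8 at 4h, and 7 fell from 4h to rev. At an adjusted p under 0.05 in edgeR, 17.0%, 12.9% and 9.61% of all genes tested changed in these comparisons. The median log2 change of the ERK list from 0h to 4h was 4.00 in clone 4 and 1.61 in clone 8. On the first principal component (51.0% of the variance of 500 genes) the clones lay apart. On the third (8.57%), all 8 libraries of 0h and 4h lay on one side and all 8 of 2h and rev on the other. The change from 0h to 4h and that from 2h to rev therefore stay within a side, and the part of this split in the other comparisons was not tested. General pluripotency markers (Pou5f1, Sox2, Sall4, Lin28a) summed to 596 to 748 CPM. Marker sums were 5.32 to 16.3 CPM for 6 primitive streak genes, 66.5 to 118 for 6 neural genes, 3.32 to 9.99 for 6 primitive endoderm genes, 1.84 to 19.5 for 4 trophoblast genes and 0.613 to 3.47 for 6 fibroblast or feeder genes, and no gene of these lists was at 0 in all 16 libraries.

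Among the 9 factors, levels per kilobase of exon covered a wide range. At 0h the mean was 14.4 ± 7.44 CPM per kb for Zic2 (SD, n = 4 here and below), 5.84 ± 0.294 for Foxd3, 4.31 ± 2.62 for Zic5 and 2.97 ± 0.574 for Otx2. Pou3f1 followed at 0.889 ± 0.311 CPM per kb, Sox3 at 0.423 ± 0.25, Sox4 at 0.419 ± 0.207, Grhl2 at 0.167 ± 0.0937 and Fgf5 at 0.0295 ± 0.0341. The large SDs of Zic2 and Zic5 came from the clones. Zic5 stood above Foxd3 in clone 4 (6.54 to 6.60 against 5.42 to 6.06 CPM per kb at 0h) and below it in clone 8 (1.89 to 2.20 against 5.89 to 5.998). Sox3 and Sox4 did not differ beyond their spread. Over all 16 libraries the mean levels kept Zic2 at the top, at 16.8 CPM per kb, and Fgf5 at the bottom, at 0.145. Zic2, Zic5, Otx2, Pou3f1 and Foxd3 were above the cutoff of the filter in all 16 libraries. Sox4, Sox3 and Grhl2 passed it through some libraries only, and Fgf5 did not pass, so 8 of the 9 were tested.

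**Figure D1:**
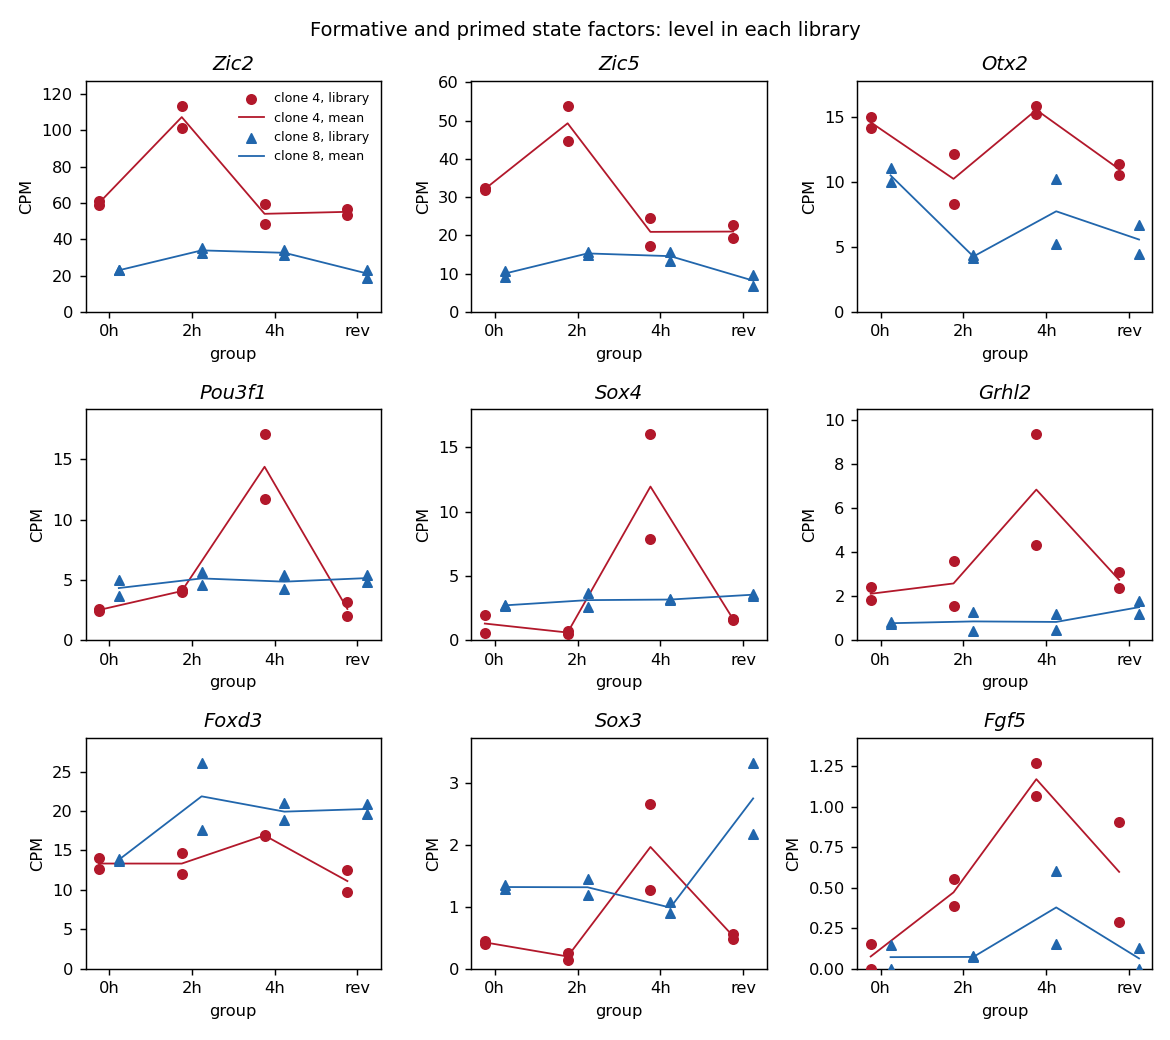
Level of each of the 9 factors in CPM (vertical axes, each from 0) in the groups 0h, 2h, 4h and rev (horizontal axis). Points are single libraries, 2 per clone and group, and lines join the clone means. Zic2 and Zic5 peak at 2h in clone 4, and Pou3f1, Sox4 and Grhl2 are highest in the 4h libraries of clone 4, with no such rise in clone 8.

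Zic2 and Zic5 rose by 2h of ERK induction in both clones and were down again in rev. They lie head to head on chromosome 14 (GRCm38): Zic2 from 122475435 to 122479852 on the plus strand and Zic5 from 122456795 to 122465677 on the minus strand, with 9757 bp between the gene models. In clone 4, Zic2 stood at 58.7 and 61.2 CPM at 0h, 101 and 114 at 2h, 48.4 and 59.7 at 4h, and 56.9 and 53.4 in rev. Its clone 8 libraries held 22.8 and 23.0 CPM at 0h, 35.1 and 32.7 at 2h, 31.3 and 33.9 at 4h, and 23.3 and 18.9 in rev. Within each clone the 2h libraries lay above the 0h and rev libraries, and at 4h only clone 8 was still as high as at 2h. With 2 libraries on a side, and the share of all genes with such an order not counted, this only describes the values. Zic5 in clone 4 was at 32.0 and 32.3 CPM at 0h, 44.7 and 53.9 at 2h, 17.2 and 24.6 at 4h, and 19.3 and 22.7 in rev. In clone 8 it was at 9.24 and 10.8 CPM at 0h, 15.6 and 15 at 2h, 13.4 and 15.8 at 4h, and 9.69 and 6.65 in rev. The same course is seen as for Zic2, except that in clone 4 Zic5 at 4h and in rev fell below its level at 0h.

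From 0h to 2h, 3 of the 8 tested factors were called in edgeR's quasi-likelihood test with Benjamini-Hochberg adjustment, where 17.0% of all genes tested were. Zic2 rose by 0.71 on the log2 scale (SE 0.14, adjusted p = 0.00195) and Zic5 by 0.61 (SE 0.19, adjusted p = 0.0319), while Otx2, below, fell. Fitted alone, clone 4 gave log2 changes of 0.83 for Zic2 and 0.61 for Zic5, and clone 8 gave 0.56 and 0.62, all called. The background was 20.7% of genes in clone 4 and 17.8% in clone 8. The changes of the pair from 0h to 2h, from 2h to 4h and from 4h to rev are between the sides of the third component. The part of that split in them was not tested. From 2h to rev, which lie on the same side of the third component, Zic2 fell by 0.84 (SE 0.14, adjusted p = 0.00259) and Zic5 by 1.10 (SE 0.20, adjusted p = 0.00477). These were the 2 called members in a comparison that called 1.78% of all genes. In the clones fitted alone, this fall was 0.95 and 1.22 in clone 4 (3.31% of genes called) and 0.73 and 1.00 in clone 8 (3.49% called), for Zic2 and Zic5 in turn. Between rev and 0h neither was called over both clones, with log2 changes of -0.13 and -0.50, and in clone 4 alone Zic5 fell by 0.61 (adjusted p = 0.00764, 16.8% of genes called). With no term for the clone, neither rise over both clones was called (adjusted p = 0.356 for Zic2 and 0.497 for Zic5). Nor were the falls from 2h to rev over both clones (0.61 and 0.528). The rise of Zic5 at 2h over both clones also lost its call without 0h library 1 of clone 4 (adjusted p = 0.0577), 0h library 1 or 2 of clone 8 (0.107 and 0.0737) or 2h library 1 or 2 of clone 4 (0.0619 and 0.122), and with library totals as the scaling (0.12). Zic5 at 2h was not called in clone 4 alone without 2h library 2 (0.0709) or with library totals (0.0719), nor in clone 8 alone without 0h library 1 (0.167) or 2h library 1 (0.0586) or in DESeq2 (0.0906), and library totals ended the clone 8 calls of both genes (0.19 and 0.176). The fall of Zic5 below 0h in rev of clone 4 was lost without rev library 1 (0.0959). Without rev library 2 of clone 8, the falls in clone 8 from 2h were not called, at an adjusted p of 0.0942 for Zic2 and 0.186 for Zic5.

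At 4h the clones parted. From 2h to 4h, Zic2 fell by 1.01 in clone 4 alone (SE 0.12, adjusted p = 6.64e-07) and Zic5 by 1.29 (SE 0.16, adjusted p = 1.03e-06), in a comparison that called 27.1% of genes. In clone 8 alone the changes were -0.06 and -0.08 with 95% intervals of -0.28 to 0.15 and -0.39 to 0.22, where 9.65% of genes were called. Against 0h, clone 8 kept Zic2 higher at 4h by 0.50 (SE 0.11, adjusted p = 0.0108, 6.28% of genes called), and Zic5 was at 0.54 (adjusted p = 0.0618). In clone 4, Zic5 fell below 0h by 0.68 (SE 0.17, adjusted p = 0.00434, 19.0% called) and Zic2 was at -0.18 (adjusted p = 0.349). The clone difference from 0h to 4h (the change in clone 8 less that in clone 4) was 0.68 for Zic2 (SE 0.17, adjusted p = 0.0133) and 1.21 for Zic5 (SE 0.24, adjusted p = 0.00125). This test called 5.72% of all genes and 5 of the 8 members. From 4h to rev the fall came in clone 8 alone, by 0.67 for Zic2 and 0.92 for Zic5 (6.42% called), and the clone difference was -0.71 for Zic2 (SE 0.18, adjusted p = 0.00697) and -0.98 for Zic5 (SE 0.27, adjusted p = 0.0118), with 13.2% of genes called. Leaving out 4h library 1 of clone 4 ended all 4 of these clone differences (adjusted p = 0.222 and 0.0537 to 4h, 0.0998 and 0.152 to rev) and the fall of Zic5 below 0h in clone 4 (0.277), while rev library 2 of clone 8 decided both clone differences to rev (0.137 and 0.254) and both clone 8 falls (0.143 and 0.261). The Zic2 difference to 4h also needed 0h libraries 1 and 2 and 4h library 2 of clone 8 (adjusted p = 0.0678, 0.0516 and 0.058), its rise at 4h in clone 8 needed the same 3 (0.141, 0.0822 and 0.0729) and was not called in DESeq2 (0.0947) or with library totals (0.9997), a scaling that also ended the Zic2 difference (0.255), and the Zic5 difference to rev needed 4h library 2 of clone 8 and rev library 2 of clone 4 (0.0503 and 0.0679).

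The pair moved together library by library. With clone means removed, log2 CPM of Zic2 and Zic5 correlated at r = 0.938 over 16 libraries, 0.917 within clone 4 and 0.976 within clone 8. Of 6492 genes with a mean of at least 10 CPM, Zic5 was the one whose profile was most like that of Zic2, ahead of the histone demethylase gene Kdm3b (r = 0.914), and after Zic2 the profile closest to Zic5 was that of Elovl6 (r = 0.880), a fatty acid elongase. These libraries share their scaling and their groups, so the values describe likeness only. The ratio of Zic2 to Zic5 levels per kb ran from 3.12 to 5.003 over the 16 libraries, with a median of 3.90. How reads that fit several genes of a family were counted is not given in the sources used here.

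**Figure D2:**
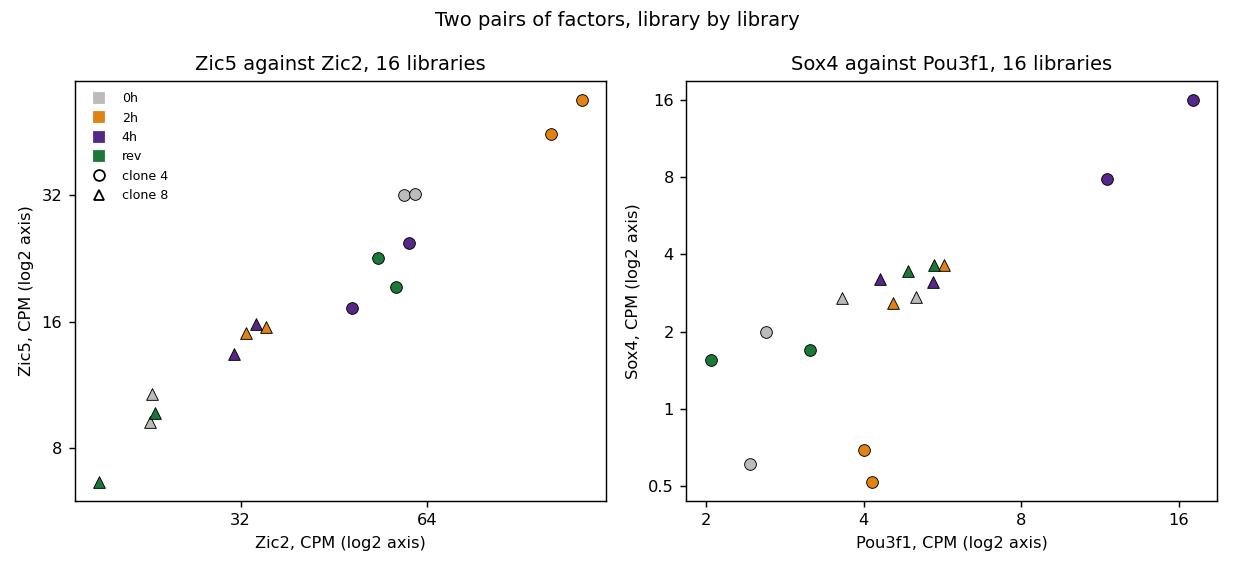
Levels of Zic5 against Zic2 (left) and Sox4 against Pou3f1 (right) in CPM on log2 axes, 1 point per library, with colour for the group and shape for the clone. The Zic pair lies along 1 line over both clones, and in the other pair the 2 libraries of clone 4 at 4h stand apart at the top right.

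Otx2 was lowest at 2h and in rev. The gene lies on chromosome 14 from 48657677 to 48673819 on the minus strand, and 3.98% of its exon length is shared with the neighbouring models Gm49154 and Otx2os1. Its clone 4 libraries held 14.2 and 15.01 CPM at 0h, 12.2 and 8.29 at 2h, 15.9 and 15.2 at 4h, and 11.4 and 10.6 in rev. In clone 8 the values were 9.96 and 11.1 CPM at 0h, 4.18 and 4.35 at 2h, 5.23 and 10.3 at 4h, and 6.66 and 4.48 in rev. In each clone the 2h and rev libraries all lay below the 0h libraries, and the share of all genes with such an order was not counted. At 4h, clone 4 stood near its 0h level, and the 2 libraries of clone 8 differed from each other.

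Over both clones Otx2 fell by 0.90 from 0h to 2h (SE 0.19, adjusted p = 0.00402 in edgeR), rose by 0.70 from 2h to 4h (SE 0.20, adjusted p = 0.0264) and was lower in rev than at 0h by 0.69 (log2 change -0.69, SE 0.20, adjusted p = 0.0332). From 2h to 4h, 12.1% of all genes were called and 4 of 8 members, and from 0h to rev 10.5% and 1 of 8. The 3 calls are between the sides of the third principal component, which separates 0h and 4h from 2h and rev, and the part of that split in them was not tested. Within a side, the log2 change was -0.20 from 0h to 4h (95% interval -0.60 to 0.21) and 0.21 from 2h to rev (-0.22 to 0.63), and neither was called. Clone 8 alone gave a fall of 1.29 at 2h (SE 0.23, adjusted p = 0.000607) and of 1.01 in rev against 0h (SE 0.28, adjusted p = 0.0225, 9.90% called). Clone 4 alone gave -0.52 at 2h (adjusted p = 0.0607) and -0.41 in rev (0.134), and the difference between the clones at 2h was -0.78 (SE 0.31, adjusted p = 0.12). The fall at 2h kept its call without any 1 library, and lost it with library totals (adjusted p = 0.0554, and 0.238 in clone 8 alone) and with no term for the clone (0.215). The difference between rev and 0h was not called with no term for the clone either (0.482), and in clone 8 alone it was not called with library totals. The rise to 4h lost its call without 2h library 2 of clone 4, 2h library 1 or 2 of clone 8, 4h library 1 or 2 of clone 4 or 4h library 2 of clone 8 (adjusted p up to 0.0828), with library totals (0.279), with no term for the clone (0.332) and with only the libraries compared (0.0549), and the difference between rev and 0h without 0h library 1 or 2 of clone 8, rev library 1 or 2 of clone 4 or rev library 2 of clone 8 (adjusted p up to 0.0962). In clone 8 alone the rev difference also lost its call without 0h library 1 or 2 or in DESeq2 (adjusted p = 0.09, 0.109 and 0.0921), or without rev library 2, where the log2 change was -0.65 (adjusted p = 0.347).

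Pou3f1, Sox4 and Grhl2 rose from 0h to 4h in clone 4 and fell from 4h to rev, and in clone 8 none of the 3 passed the test in any comparison of the groups. Pou3f1 lies on chromosome 4 from 124656807 to 124660655 on the plus strand, with 8.57% of its exon length under Gm2164 on the other strand. In clone 4 it stood at 2.60 and 2.43 CPM at 0h, 4.15 and 4.01 at 2h, 17.1 and 11.7 at 4h, and 3.16 and 2.04 in rev. In clone 8 it stood at 3.63 and 5.03 CPM at 0h, 5.70 and 4.56 at 2h, 5.43 and 4.29 at 4h, and 5.45 and 4.86 in rev. The 4h libraries of clone 4 were above all other libraries. Clone 4 alone gave a rise of 2.55 from 0h to 4h (SE 0.29, adjusted p = 2.75e-07), of 1.86 from 2h to 4h, and a fall of 2.51 from 4h to rev (SE 0.26, adjusted p = 5.34e-08, 24.6% of genes called). Clone 8 alone gave 0.23 from 0h to 4h (95% interval -0.30 to 0.75) and 0.02 to rev.

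Sox4, the gene of the first upstream sequence above, had the largest change among the tested members, in clone 4. It lies on chromosome 13 from 28948919 to 28953713 on the minus strand. A model on the other strand, Gm26735, covers 54.6% of its exon length, and that model had 0 counts in all 16 libraries. In clone 4 Sox4 was at 2.00 and 0.606 CPM at 0h, 0.519 and 0.691 at 2h, 16 and 7.87 at 4h, and 1.69 and 1.55 in rev. In clone 8 it was at 2.70 and 2.73 CPM at 0h, 3.65 and 2.59 at 2h, 3.12 and 3.22 at 4h, and 3.63 and 3.45 in rev. Both clone 4 libraries at 4h were above all other libraries, and the clone 8 libraries stayed within a narrow band. In clone 4 alone Sox4 rose by 3.35 from 0h to 4h (SE 0.41, adjusted p = 8.53e-07) and by 4.35 from 2h to 4h (SE 0.44, adjusted p = 5.38e-08), and fell by 2.94 from 4h to rev (SE 0.34, adjusted p = 4.43e-07). The low end of these changes rests on 4 to 10 counts per library at 0h and 2h. Clone 8 alone gave 0.22 from 0h to 4h (95% interval -0.40 to 0.84).

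The test of the difference between clones was passed by both genes. From 0h to 4h the clone difference was -2.35 for Pou3f1 (SE 0.41, adjusted p = 0.000194) and -3.15 for Sox4 (SE 0.56, adjusted p = 0.000251). From 4h to rev it was 2.56 for Pou3f1 (SE 0.39, adjusted p = 2.46e-05) and 3.11 for Sox4 (SE 0.51, adjusted p = 6.54e-05). These 4 differences and the clone 4 changes of both genes to and from 4h kept their calls under every alternative run, each left-out library included. Over both clones together Pou3f1 rose by 1.43 at 4h (adjusted p = 0.0181) and Sox4 by 1.90 (adjusted p = 0.0337), the only members called there, where 12.9% of genes were. Pou3f1 fell by 1.38 from 4h to rev (adjusted p = 0.0268), where 9.61% of genes were called, and Sox4 was at -1.66 (adjusted p = 0.0615). These averages rest on clone 4, and with no term for the clone neither rise was called, nor the fall of Pou3f1. Without 4h library 1 of clone 4, the rise was 0.90 for Pou3f1 (adjusted p = 0.107) and 1.01 for Sox4 (0.212) and the fall of Pou3f1 was 0.83 (0.172), and both rises also lost their calls without 0h library 1 or 2 of clone 4 (adjusted p = 0.0674 and 0.0611 for Pou3f1, 0.0829 and 0.103 for Sox4). The fall of Pou3f1 was not called either without 4h library 2 or rev library 1 or 2 of clone 4 (adjusted p = 0.0697, 0.092 and 0.132), nor the rise of Sox4 without 0h library 1 or 2 of clone 8 or 4h library 2 of clone 4 (0.0528, 0.0501 and 0.0623). Beside these differences stands the ERK list, whose median rise at 4h was larger in clone 4, and its part in them was not tested.

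Grhl2 lies on chromosome 15 from 37233036 to 37363569 on the plus strand. In clone 4 it was at 2.40 and 1.82 CPM at 0h, 1.56 and 3.59 at 2h, 9.33 and 4.32 at 4h, and 2.37 and 3.10 in rev, the 4h libraries being the highest. In clone 8 it was at 0.830 and 0.719 CPM at 0h, 1.29 and 0.421 at 2h, 1.21 and 0.459 at 4h, and 1.21 and 1.79 in rev, with 3 to 17 counts per library. Clone 4 alone gave a rise of 1.80 from 0h to 4h (SE 0.40, adjusted p = 0.00184) and a fall of 1.39 to rev (SE 0.34, adjusted p = 0.00352). Without 4h library 1 of clone 4 the rise was 1.05 (adjusted p = 0.266) and the fall 0.64 (0.462), so both calls rest on that library. The difference between clones was -1.62 from 0h to 4h (adjusted p = 0.328) and 2.23 from 4h to rev (SE 0.73, adjusted p = 0.0366), the latter lost without 4h library 1 of clone 4 or 2 of clone 8 (0.312 and 0.131), without rev library 1 or 2 of clone 4 or 2 of clone 8 (0.0845, 0.0572 and 0.381), and in DESeq2 (0.0978). Scaling by library totals also ended the call of the clone difference from 4h to rev. The summed level of the 4 trophoblast markers in clone 4 was 9.72 CPM at 0h, 12.9 at 2h, 17.7 at 4h and 14.4 in rev. In clone 8 it was 3.96, 3.10, 3.28 and 6.02, with the same order of clones as Grhl2. The sum joins genes that moved in opposite ways. Of the 2 markers tested, clone 4 alone called 1 higher and 1 lower from 2h to 4h (27.1% of genes called) and from 4h to rev (24.6%). Over both clones Krt7 was called lower and then higher in these 2 steps (12.1% and 9.61%). The part of these markers in the Grhl2 values was not tested. In bulk RNA, a change in the number of cells that express a gene and a change in RNA per cell cannot be told apart.

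**Figure D3:**
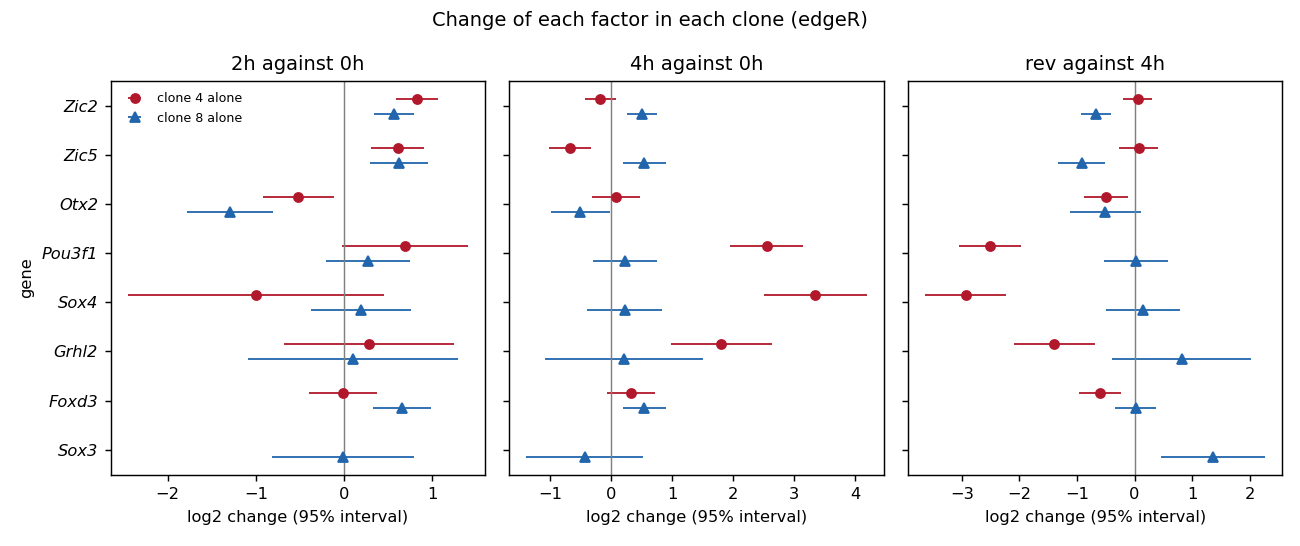
Log2 change of each tested factor from 0h to 2h, from 0h to 4h and from 4h to rev (horizontal axes), with each clone fitted alone in edgeR. Points are estimates and bars their 95% intervals. Pou3f1, Sox4 and Grhl2 of clone 4 stand to the right at 4h and to the left in rev, while the intervals of these 3 in clone 8 all include 0, and Sox3 has no clone 4 point because it did not pass the filter there.

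Sox3 lies on the X chromosome from 60891366 to 60893430 on the minus strand and was counted 1 to 20 times per library, so its changes are imprecise. In clone 4 it had 2 and 3 counts at 0h, 2 and 1 at 2h, 20 and 5 at 4h, and 5 and 5 in rev. In clone 8 it had 13 and 9 counts at 0h, 19 and 17 at 2h, 9 and 7 at 4h, and 11 and 17 in rev. On the CPM scale, the clone mean was highest in rev of clone 8 (libraries at 3.33 and 2.18) and lowest in 2h of clone 4 (0.259 and 0.138). The 4h library 1 of clone 4 lay between the rev values, at 2.67. The 3.33 is 11 counts in rev library 1 of clone 8. That library had 78.9% of its counts in the 8 largest features, a TMM factor of 0.537 and the lowest depth after scaling, 3.30 M. No comparison of 2 groups was called for Sox3 over both clones, while the clone difference was -2.72 from 0h to 4h (SE 0.77, adjusted p = 0.0296) and 3.39 from 4h to rev (SE 0.67, adjusted p = 0.000698). Without 4h library 1 of clone 4, which holds the 20 counts, these were -1.97 (adjusted p = 0.459) and 2.63 (0.101). The difference to 4h was also lost without 0h library 1 or 2 of clone 4 or of clone 8 or 4h library 1 or 2 of clone 8. It was not called in DESeq2 or with library totals either.

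Fgf5, on chromosome 5 from 98254184 to 98277030 on the plus strand, was near the detection limit in all groups. Its counts in clone 4 were 0 and 1 at 0h, 3 and 4 at 2h, 8 and 5 at 4h, and 8 and 3 in rev. In clone 8 they were 0 and 1 at 0h, 1 and 1 at 2h, 6 and 1 at 4h, and 0 and 1 in rev. Clone 4 thus held most of its reads at 2h and in rev, and the 4h libraries held the most of any group, 20 of 43. Per unit of depth the ratio to 0h was 2.995 at 2h (exact 95% counting interval 0.62 to 28.5), 10.1 at 4h (2.45 to 89.1) and 5.59 in rev (1.24 to 51.4). These intervals cover counting error only and not the spread between libraries, and with 2 counts at 0h the size of the ratio is not settled. No test across genes was run for Fgf5.

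Foxd3, the gene of the second upstream sequence, was the most even of the well-measured members. It lies on chromosome 4 from 99656299 to 99658622 on the plus strand. In clone 4 it was at 12.6 and 14.1 CPM at 0h, 14.7 and 12.0 at 2h, 16.8 and 17.0 at 4h, and 12.5 and 9.70 in rev. In clone 8 it was at 13.7 and 13.9 CPM at 0h, 26.1 and 17.6 at 2h, 21.01 and 18.8 at 4h, and 19.7 and 20.9 in rev. The clones were alike at 0h, and from 2h on the clone 8 libraries were the higher ones. No comparison of groups was called over both clones, with log2 changes of 0.36 at 2h (95% interval 0.02 to 0.71, adjusted p = 0.14) and 0.44 at 4h (0.08 to 0.79, adjusted p = 0.0947). In clone 8 alone Foxd3 rose by 0.66 at 2h (SE 0.16, adjusted p = 0.00604), and in clone 4 alone it fell by 0.60 from 4h to rev (SE 0.18, adjusted p = 0.016). Leaving out 0h library 1 or 2h library 1 of clone 8 ended the first call (adjusted p = 0.083 and 0.158, the log2 change being 0.35 in the second case), as did library totals (0.142), and leaving out 4h library 1 or 2 or rev library 2 of clone 4 ended the other (0.112, 0.0531 and 0.251), as did DESeq2 (0.0873). For the clone difference from 0h to 2h, edgeR called 0 of the 8 members, where 7.94% of all genes were called. Unadjusted p-values under 0.05 were found for 2 members, Otx2 and Foxd3, beside 2932 of all 12742 genes, and DESeq2 called 0 as well.

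The clones differed in the level of several members. Averaged over the groups, 6 of the 8 were called between clone 8 and clone 4, where 34.9% of all genes were. Lower in clone 8 were Otx2 by a log2 change of -0.95 (SE 0.14, adjusted p = 2.76e-05), Zic2 by -1.31 (SE 0.10, adjusted p = 7.63e-09), Zic5 by -1.35 (SE 0.14, adjusted p = 3.81e-07) and Grhl2 by -1.76 (SE 0.32, adjusted p = 0.000229). Higher were Foxd3, by 0.48 (SE 0.12, adjusted p = 0.00333), and Sox3, by 1.06 (SE 0.40, adjusted p = 0.0472). Pou3f1 and Sox4 were not called, at -0.05 and 0.18, but their averages join groups with opposite orders of the clones. Their clone 8 libraries were the higher ones at 0h, 2h and rev, and the lower ones at 4h. At 0h the means of clone 4 and clone 8 were 2.51 and 4.33 CPM for Pou3f1 and 1.30 and 2.71 for Sox4. Sox3 entered the test mainly through clone 8, where it was high, and did not pass the filter in clone 4 alone, so its call is no support for a difference. Grhl2 entered the test of both clones mainly through clone 4, where it was high, though it also passed the filter in clone 8 alone. The Grhl2 call is likewise no support for a difference. The Zic2, Zic5 and Grhl2 values of clone 8 lay below those of clone 4 in the same group. The share of all genes that parted in this way was not counted, so the order only describes these values. The call for Sox3 was lost without any 1 of 13 of the 16 libraries (adjusted p up to 0.109), the exceptions being 4h library 1 of clone 4 and the 4h libraries of clone 8, and the other 5 kept their calls without any 1 library.

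Other genes of the formative and primed program, from a list of 16 that were all tested, moved in both directions. From 0h to 2h, 5 rose and 2 fell (17.0% of all genes called), with a median log2 change of -0.01 against 0.00 over all genes. From 0h to 4h, 6 rose and 2 fell (12.9% of all genes called), with a median of 0.58 against -0.01. From 4h to rev, 1 rose and 7 fell (9.61% of all genes called), with a median of -0.41 against 0.00. Etv4, an ETS factor, rose by 3.31 at 4h (SE 0.42, adjusted p = 3.71e-05) and fell by 2.99 to rev. Utf1, a chromatin factor of pluripotent cells, rose by 1.32 at 4h (SE 0.14, adjusted p = 3.88e-06) and fell by 1.09. Cdh2, which codes for N-cadherin, rose by 1.31 at 4h (SE 0.29, adjusted p = 0.00543). Tdgf1, the Nodal co-receptor gene, rose by 0.77 (SE 0.09, adjusted p = 1.37e-05). Nodal, a TGF-beta family ligand of the epiblast, went the other way, falling by 0.40 at 4h (SE 0.11, adjusted p = 0.0217) and rising by 0.85 to rev (SE 0.11, adjusted p = 6.38e-05). Dnmt3a, a DNA methyltransferase gene, was called in no comparison of groups over both clones and differed between clones in its change to 4h by -1.02 (SE 0.16, adjusted p = 4.31e-05). Of the 16, 4 had a called clone difference from 0h to 4h, where 5.72% of all genes had one. All 4 had the smaller or more negative change in clone 8, and Etv4 was the largest at -3.02 (adjusted p = 3.36e-05). Of 11 naive genes, 2 rose and 4 fell from 0h to 4h over both clones (12.9% of all genes called), Nanog, Klf4, Tfcp2l1 and Prdm14 being the 4 that fell. Fitted alone, clone 4 had 7 that fell, where 19.0% of all genes were called, and clone 8 had 1, where 6.28% were. The clone difference was called for all 4 named genes, from 0.87 for Tfcp2l1 to 1.30 for Klf4.

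Among 18 paralogs of the members 10 were tested. Grhl3 rose by 0.59 at 2h (SE 0.16, adjusted p = 0.0156) and by 0.81 at 4h. Fgf4, the FGF ligand gene of naive cells, fell by 1.13 at 4h (SE 0.18, adjusted p = 0.000433) and rose by 1.34 to rev, and Sox1 and Sox12 fell at 2h, by 0.88 and 0.68. The change of Fgf4 at 4h differed between clones by 1.39 (SE 0.17, adjusted p = 6.81e-07). Crx, Pou3f4, Zic1, Zic4 and Foxd4 had at most 3 counts in any library.

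The profiles most like those of the other members, as Pearson's r of clone-centred log2 CPM over the same 16 libraries and 6492 genes, were those of Gpi1 (0.869) and Pipox (0.858) for Otx2, Actb (0.957) and Cemip2 (0.932) for Pou3f1, and Lasp1 (0.923) and Klhl22 (0.912) for Sox4. For Sox3 they were Slc4a11 (0.966) and Cacna1a (0.912), for Grhl2 Afap1 (0.835) and Nub1 (0.812), and for Foxd3 G3bp2 (0.844) and Hnrnph1 (0.828). The likeness of Actb, the gene of beta-actin, to Pou3f1 was 0.995 within clone 4 and 0.116 within clone 8, so it rests on clone 4. That of Cemip2 was 0.9746 and 0.153 in turn, and that of Lasp1 to Sox4 0.952 and 0.501. Among the members themselves, Pou3f1 and Sox4 correlated at 0.821, Sox3 and Sox4 at 0.844 and Sox4 and Grhl2 at 0.736, and Zic5 and Sox3 ran opposite at -0.742. These values describe libraries that share groups, depth and scaling.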

How the data were processed

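RNA of mouse RSC of the line CRAFR26 was measured in 16 libraries, 4 in each of 4 groups. Per the labels' protocols, ribosomal RNA was depleted and libraries were made with a NEBNext Ultra II kit. The deposited table holds raw read counts per Ensembl gene, made by the authors with bcl2fastq 2.19.1, STAR 2.5.3a and mm10, per the submitters' processing notes; the counter, its annotation and its use of strand are not given in the sources used here. Of 52636 IDs, 52489 matched GENCODE M21 (GRCm38), which gave symbols, positions and exon lengths.

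Genes were filtered by edgeR 4.0.16 (filterByExpr by group, minimum count 10, minimum total 15) and scaled by TMM, which left 12742. The quasi-likelihood model had a term for each group and one for the clone. A second model with a mean for each group and clone gave clone differences, as the change in clone 8 less that in clone 4. Each clone was also fitted alone (12759 and 12831 genes), an addition made after seeing the data. P-values were Benjamini-Hochberg adjusted over all genes tested and called under 0.05. SE is the log2 change divided by the root of the F statistic. The tests were tested on simulated data.

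Library numbers do not pair libraries beyond the clone: deviations correlated at 0.375 for the same clone and number and 0.384 for the other number of that clone. Libraries 1 and 2 differed beyond counting error in every clone and group (chi-square over its degrees of freedom 1.32 to 4.49), and none was merged. DESeq2 1.42.0, RLE factors, library totals, no filter, no clone term, a replicate block, removal of the 8 largest features, pairwise fits and leaving out each library were the alternatives. The members and lists were chosen with earlier results of these data known. Named genes were all members, the 2 most similar profiles of each among genes with a mean of at least 10 CPM, and called genes of the lists. Of the called genes of the lists, 1 is not reported here.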

Additional observations from a re-analysis of the deposited data

Results flagged for a closer look

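The change of several factors differed between the clones by the interaction test of edgeR, given as the change in clone 8 less that in clone 4 on the log2 scale. From 0h to 4h this held for 5 of 8 members, where 5.72% of all genes were called: Pou3f1 at -2.35, Sox4 at -3.15, Sox3 at -2.72, Zic2 at 0.68 and Zic5 at 1.21. Without 4h library 1 of clone 4, Sox3, Zic2 and Zic5 were not called (adjusted p = 0.459, 0.222 and 0.0537), and Pou3f1 and Sox4 were. From 4h to rev it held for 6 of 8 members, where 13.2% of all genes were called: Pou3f1 at 2.56, Sox4 at 3.11, Sox3 at 3.39, Grhl2 at 2.23, Zic2 at -0.71 and Zic5 at -0.98. Without the same library Sox3, Grhl2, Zic2 and Zic5 were not called (adjusted p = 0.101, 0.312, 0.0998 and 0.152), and the other two were. The median rise of 10 ERK response genes at 4h was 4.00 in clone 4 and 1.61 in clone 8, and its part in these differences was not tested. Dixon's ratio of the gap to the range did not pass its 95% critical value in any of the 36 groups of 4 CPM values of a member. Each group mixes libraries of both clones, so a gap between the clones widens the range and the ratio can miss an outlying library.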

How the results depend on the processing

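No called change of a member reversed under any alternative run. Of 30 member results called with both clones in the fit, 9 kept their call under all their alternatives, and 107 of 488 settings ended one; in single clones 11 of 29 kept it, and 39 of 261 settings ended one. Results not called numbered 50, with 22 settings that called one and 55 in which the sign turned, among them Otx2 from 2h to rev, at -0.082 with library totals. Leaving out 1 library, with a lone library assumed to vary like the others, gave the following counts of called genes among all genes tested. They were 1272 to 1835 from 0h to 2h, 964 to 1840 from 0h to 4h, 703 to 1762 from 2h to 4h, 642 to 1493 from 4h to rev, 686 to 1231 from 0h to rev and 80 to 195 from 2h to rev. For the clone difference they were 424 to 1149 to 2h, 281 to 788 to 4h and 727 to 1528 from 4h to rev. The full data called 2162, 1645, 1547, 1224, 1332 and 227 genes in the 6 comparisons and 1012, 729 and 1681 for the clone differences. Without a clone term the 6 counts were 757, 546, 266, 251, 273 and 41, and DESeq2 gave 526, 443 and 999 clone differences. Scaling by library totals called 446, 513, 385, 532 and 450 genes in the first 5 comparisons, 474 and 157 clone differences to 2h and 4h and 2193 genes between clones (4445 with TMM). It moved the median of all genes by 0.106 at 2h, to -0.35 from 2h to rev and to -0.67 for the clone difference from 4h to rev. The split of higher against lower calls went from 1209 and 953 to 348 and 98 at 2h, from 574 and 650 to 85 and 447 from 4h to rev, from 702 and 630 to 107 and 343 from 0h to rev, and from 98 and 129 to 13 and 144 from 2h to rev. For the clone level it went from 2178 and 2267 to 1428 and 765, and for the clone differences from 373 and 639 to 448 and 26 at 2h and from 803 and 878 to 119 and 1794 from 4h to rev. With no filter 483 genes were called from 2h to rev, and with only the libraries compared 831 there and 958 from 2h to 4h; the cause was not tested. The replicate block, whose numbers share only a name beyond the clone, called 1834 genes at 2h and 1325 at 4h. It ended the calls of Sox4 over both clones from 0h to 4h (adjusted p = 0.0561) and from 2h to 4h (0.0505). Depth limits Sox3, Grhl2 and Fgf5 most.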
